A study of Drosophila melanogaster with 24 samples.

Results

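The subject is a set of 43 Drosophila melanogaster genes of the cell cycle and of DNA replication, out of 17830 genes with a FlyBase identifier in the deposited tables. The genes were chosen by name, and all 43 were found by exact symbol in all 24 libraries. They were ordered by the phase in which their products act. The G1/S group had 9 genes: CycD, Cdk4, CycE, Cdk2, E2f1, E2f2, Dp, Rbf and dap. The S group had 15 genes: Mcm2, Mcm3, dpa, Mcm5, Mcm6, Mcm7, Orc1, Orc2, Orc5, Orc6, dup, geminin, PCNA, RnrL and RnrS. The G2/M group had 15 genes: CycA, CycB, CycB3, Cdk1, stg, polo, aurA, aurB, Incenp, borr, Klp61F, Bub1, Bub3, BubR1 and mad2. The last group, mitotic exit, had 4 genes: fzy, fzr, pim and thr.

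The libraries came from a study of the fly gut at different ages and after changes to the RNA editing enzyme ADAR or to the zinc-finger protein Zn72D. Of the 7 groups, 3 were labelled midgut and had 4 libraries each. These were 10-day-old and 30-day-old flies of the lacZ line, named esgts-lacZ, and 10-day-old flies of the line esgts-Adar IR, in which RNA interference lowers Adar. All of these carried a temperature-sensitive esg driver, active in stem cells and enteroblasts of the gut, so that lacZ was the control transgene and the knockdown was directed to those cells. The other 4 groups had 3 libraries each and were labelled whole organism: a Zn72d knockdown, the WT libraries named as its control, an overexpression of ADAR in its E374A form, and the WT libraries named as its control. For these 4 groups the labels gave neither an age nor a driver, beyond the words of the design text that the changes were specific to the midgut. The extract protocol of all 24 libraries describes stem cells of the midgut sorted by flow cytometry. No label said that libraries of a group came from separate animals or pools, so p-values measured the spread between these libraries, which may be technical.

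Cyclins switch on cyclin-dependent kinases in turn. Cyclin E with Cdk2 starts S phase, E2F1 with its partner Dp drives the transcription of replication genes, Rbf restrains E2F, and the ORC and MCM complexes mark and unwind origins. Cyclins A, B and B3 with Cdk1 bring cells into mitosis, the spindle checkpoint holds them there, and the anaphase-promoting complex ends mitosis by destroying securin and cyclins. In the adult fly midgut the stem cells are the main dividing cells, while enteroblasts on their way to becoming enterocytes replicate DNA without dividing and so use the S-phase genes without the mitotic ones.

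The level of a gene was its deposited TPM, transcripts per 1000000, which is corrected for transcript length. Between 8070 and 8702 genes reached 1 TPM in a library. Sorted-cell markers separated the sets: esg, the transcription factor that marks stem cells and enteroblasts, ran from 189 to 802 TPM in the 12 midgut libraries. The 10 markers of stem cells and enteroblasts summed to between 1207 and 2811 TPM there and to between 43.6 and 78.2 TPM in 11 of the 12 libraries labelled whole organism. In those 11 libraries visceral muscle markers summed to between 1059 and 1980 TPM, and 11 enterocyte markers to 83259 TPM or more. The library labelled E374A control 3 went with the midgut set on each of these markers, with a progenitor sum of 1308 TPM and a muscle sum of 5.21 TPM. Each library labelled E374A overexpression and its Zn72d control counterpart by number had equal coverage, within 0.1%, at 83.1% to 83.5% of genes, against at most 0.450% in any other pair. These pairs therefore share reads. Adar itself was at 879 and 801 TPM in the libraries labelled E374A control 1 and 2 and at 17.2, 14.5 and 15.8 TPM in those labelled overexpression, so that the direction of this set rests on its titles.

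Most of the 43 genes stood far higher in the midgut libraries than in the libraries labelled whole organism. All 12 midgut libraries lay above all 11 whole-organism libraries for 34 of the 43 genes, against 29.7% of 9000 genes compared, and the reverse held for 0 of the 43, against 16.9%. The 11 whole-organism libraries include those labelled E374A overexpression, which share reads with the Zn72d controls, so they are not 11 separate samples. These 2 sets of tables were scaled separately, so the levels are set side by side without a test. As RNA of mixed or sorted cells was measured in bulk, more cells in the cycle and more RNA per cell cannot be told apart, here and below.

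By phase, the ratio of the midgut median to the whole-organism median was 4.07 for the median gene of the G1/S group, 8.18 for S, 7.62 for G2/M and 13.1 for exit. Incenp, which anchors the chromosomal passenger complex, had the largest ratio, with a median of 65.5 TPM in the midgut and 0.889 TPM in the whole-organism libraries. Cyclin A followed, at 66.7 against 1.74 TPM. Orc2, a subunit of the origin recognition complex, stood at 19.8 against 0.600 TPM. In the 11 whole-organism libraries 5 genes stayed below 1 TPM throughout: CycB3, stg, fzy, pim and thr, whose products act in mitosis or at its entry and exit.

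**Figure D1:**
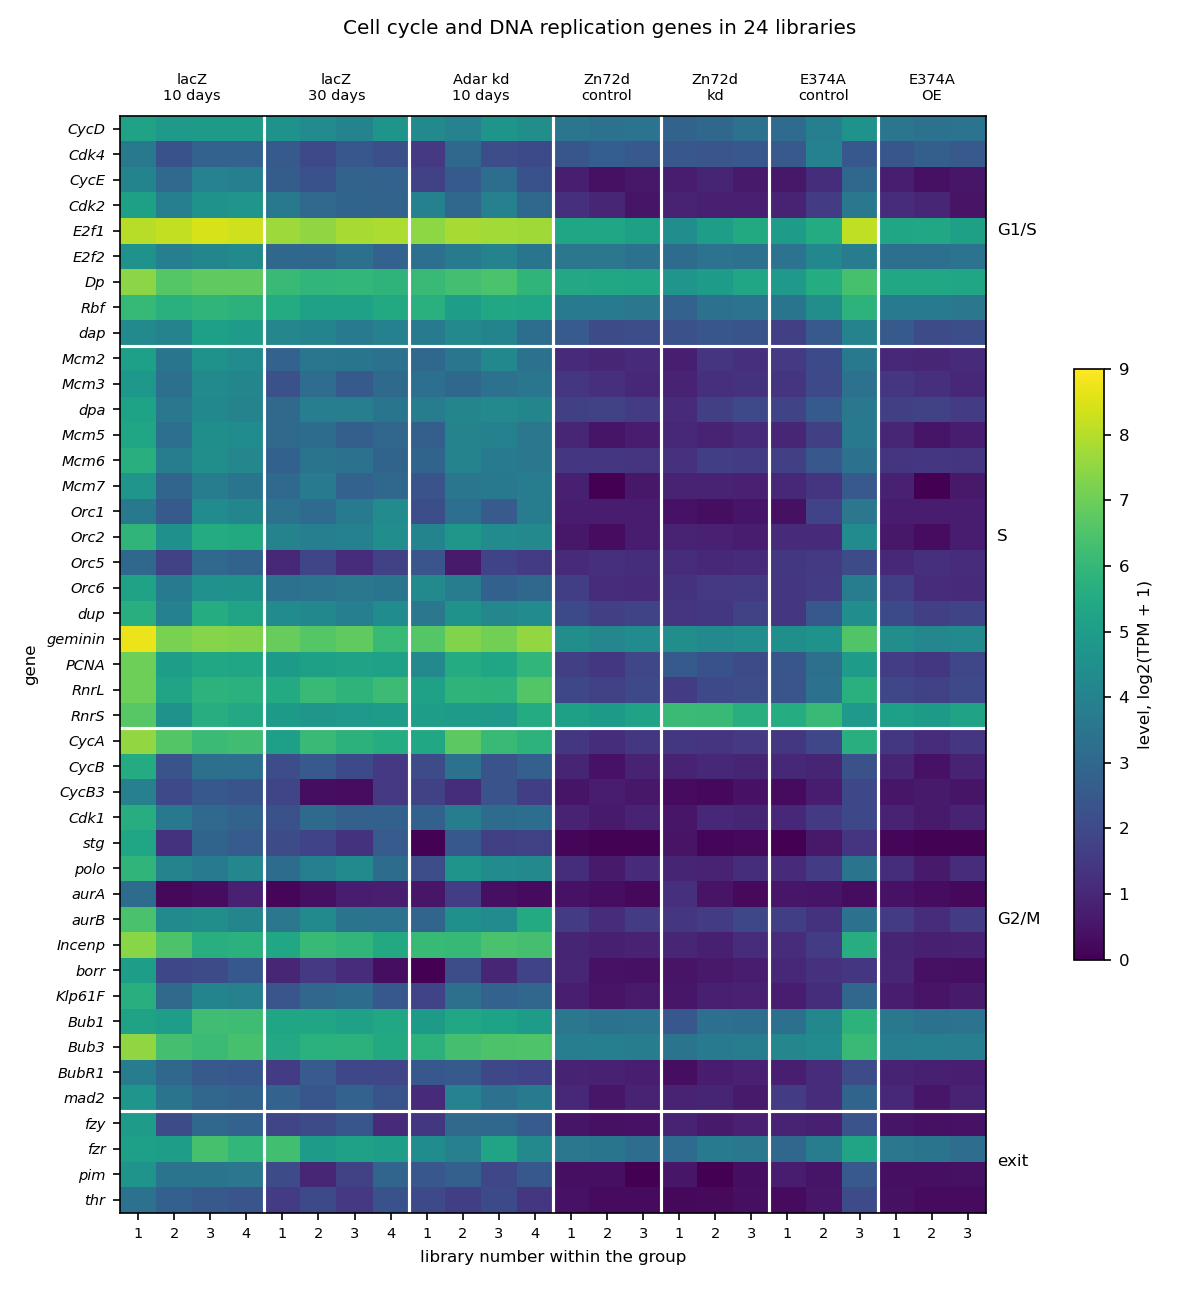
Level of each of the 43 genes as log2(TPM + 1), rows by phase, columns by group and library number (kd, knockdown; OE, overexpression, by title). The 12 midgut libraries and E374A control 3 are brighter in most rows, with E2f1, geminin and Dp among the brightest.

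The 9 exceptions to that order were mixed in kind. Cdk4, the partner of cyclin D, lay between 1.84 and 11.4 TPM in the midgut and between 4.15 and 14.6 TPM in the other set. RnrS, the small subunit of ribonucleotide reductase, lay between 23.0 and 101 TPM and between 28.7 and 69.9 TPM. Its large partner RnrL behaved otherwise, with 34.5 to 129 TPM in the midgut and 1.98 to 9.38 TPM in the other set, so that the subunits of this enzyme were near each other in level in the midgut and far apart in the other set. E2f2, the repressor E2F, overlapped too, with medians of 11.3 and 9.65 TPM. The other exceptions, Orc5, aurA, borr, mad2, stg and CycB3, each had at least 1 midgut library near or below 1 TPM.

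Within the midgut the 6 most abundant genes by median came from G1/S, S and G2/M. E2f1 had the highest median of the 12 libraries, at 226 TPM with a range from 176 to 348 TPM, followed by geminin, the inhibitor of origin licensing, from 67.6 to 428 TPM. Bub3, Dp, CycA and Incenp followed, with medians of 75.0, 72.7, 66.7 and 65.5 TPM. The median of the phase in a library averaged 26.6 ± 7.83 TPM (SD, n = 4) for G1/S in the 10-day lacZ group, 14.7 ± 2.14 TPM (n = 4) in the 30-day group and 14.0 ± 2.48 TPM (n = 4) in the Adar knockdown. For S it averaged 23.2 ± 11.1, 11.1 ± 1.39 and 14.0 ± 2.58 TPM in the same order of groups. For G2/M it averaged 18.3 ± 18.2, 5.59 ± 1.20 and 8.23 ± 3.98 TPM, and for exit 13.1 ± 9.49, 3.65 ± 1.08 and 5.10 ± 1.24 TPM. The wide spread of the 10-day group in G2/M came from 1 library, at 45.6 TPM, while the other 3 lay between 8.74 and 9.94 TPM.

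**Figure D2:**
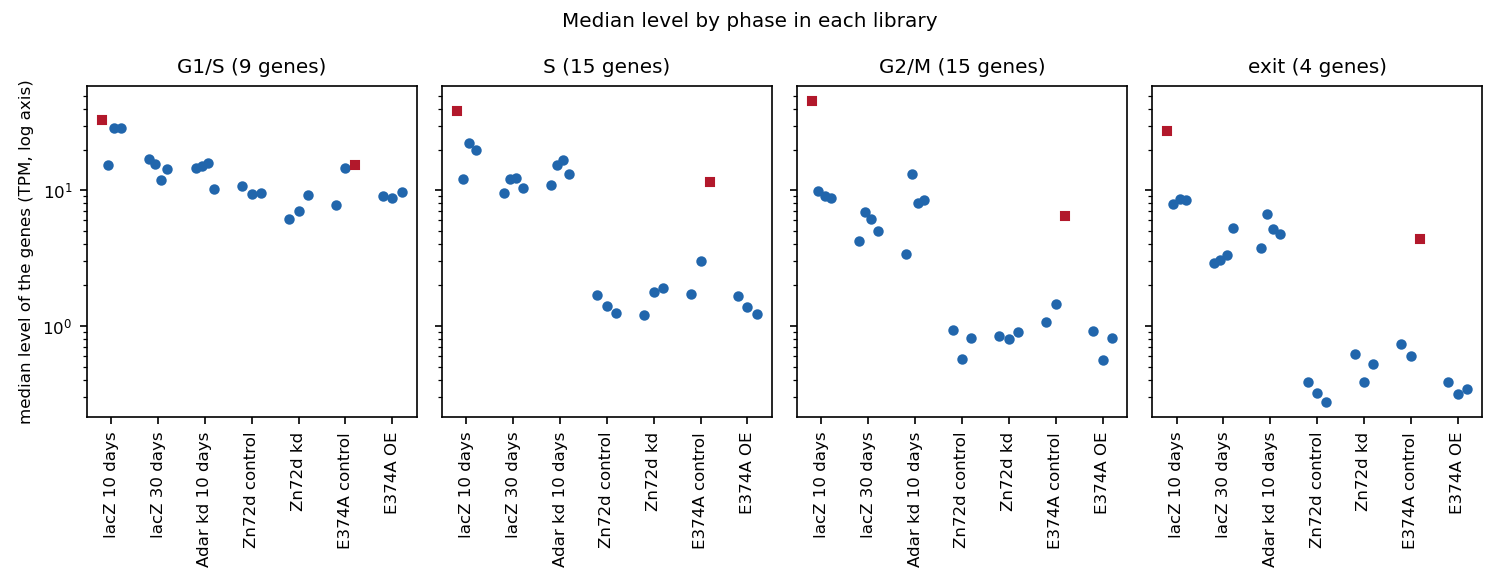
Median level of the genes of each phase in every library (TPM, log axis), by group. Red squares mark 10-day lacZ library 1, the highest in G2/M at 45.6 TPM, and the library labelled E374A control 3, which lies with the midgut libraries.

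That library, 10-day lacZ library 1, stood apart for the cell cycle genes. It had the highest level of all 12 midgut libraries for 37 of the 43 genes, against 25.5% of 8745 genes. Its ratio to the median of 10-day libraries 2 to 4 had a median of 2.39 over the 43 genes, and of 0.949 over all genes. The ratio was 3.75 for the median gene of G2/M, 2.16 for exit, 1.94 for S and 1.23 for G1/S.

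Mitotic genes gave the clearest examples. CycB, the main mitotic cyclin, had 45.6 TPM in library 1 and 4.07, 9.07 and 8.74 TPM in libraries 2 to 4. Cdk1, its kinase, had 47.4 TPM against 11.4, 7.46 and 6.20 TPM. The Cdc25 phosphatase stg, which triggers entry into mitosis, had 38.0 TPM against 1.503, 6.49 and 5.10 TPM. For Cdk1 the other 3 libraries of the group overlapped both the 30-day and the knockdown libraries. For CycB and stg libraries 3 and 4 lay above all 30-day libraries, while library 2 lay inside the 30-day range. For stg libraries 3 and 4 also lay above all knockdown libraries.

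The 6 genes for which library 1 was not the highest were E2f1, dap, Orc1, Orc5, Bub1 and fzr. For E2f1 it was the lowest of its group, at 263 TPM against 289, 348 and 322 TPM, and for fzr, the Cdh1 subunit that activates the anaphase-promoting complex in G1 and in cells that have left mitosis, it had 32.7 TPM against 32.4, 81.8 and 61.3 TPM. Other markers moved with library 1 as well. Dl, the Notch ligand of stem cells, had 110 TPM there and 3.23, 7.72 and 7.90 TPM in libraries 2 to 4. The 11 enteroendocrine markers, all of them above 1 TPM, summed to 2623 TPM against 336 to 349 TPM. The 11 markers of the female germline and follicle, all above 0 in library 1, summed to 170.0 TPM against 1.02 to 2.79 TPM, with Yp1, a yolk protein gene, at 90.9 TPM, vas at 3.65 TPM and osk at 2.42 TPM. The noncoding RNA roX1 had 10.4 TPM in 10-day library 1 and 10.5 TPM in 30-day library 1, and at most 0.445 TPM in the other midgut libraries. The progenitor sum was 2811 TPM against 1857 to 2760 TPM. The part of these cells in the levels of library 1 was not tested. The counts of the 43 genes and of the wider lists in the age and knockdown comparisons are also given without it.

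Flies aged 30 days were compared with flies aged 10 days to see how the genes changed with age. With age 16 of the 43 genes fell and 0 rose, against 15.4% of 8745 tested genes that fell and 4.23% that rose, by limma's test on log2(TPM + 1) at an adjusted p under 0.05. Those that fell were 5 of 9 in G1/S (CycE, Cdk2, E2f1, E2f2 and Dp), 7 of 15 in S (Mcm2, Mcm3, Mcm5, Mcm6, Orc2, Orc6 and geminin), 3 of 15 in G2/M (CycB3, Klp61F and Bub3) and 1 of 4 in exit (pim). The median log2 fold change of the 43 genes was −0.99, and that of all tested genes −0.32. By phase it was −0.62 for G1/S, −1.03 for S, −0.997 for G2/M and −1.15 for exit, and 40 of the 43 genes lay below the median gene.

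Because the median gene itself lay below 0, the libraries were also set on one scale by median ratios, which moved the median gene to −0.05. On that scale 5 of the 43 genes fell and 0 rose, against 3.74% of all genes that fell and 5.16% that rose. The 5 were Cdk2, E2f2, Mcm3, Orc2 and pim, all of which also fell on TPM. Without 10-day library 1, 9 of 42 tested genes fell on TPM (Cdk2, E2f1, E2f2, Dp, Mcm3, Mcm6, Orc2, Bub3 and pim), against 13.2% of genes, and 0 after median-ratio scaling, against 2.51%. The median over the genes was then −0.69 on TPM, with all genes at −0.35. Leaving out each of the 8 libraries in turn gave 7 to 22 genes on TPM, with 22 without 10-day library 2.

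The G1/S regulators held the smallest adjusted p of the set. E2f2 (FBgn0024371, dm6 chromosome 2L, 21154293 to 21156749, minus strand) represses E2F target genes together with the Rb-family proteins. Its 30-day libraries had 6.99, 7.28, 9.10 and 6.16 TPM, and its 10-day libraries 23.9, 13.6, 16.5 and 18.5 TPM. The groups did not overlap, and 10-day library 1 was the highest. Its mean went from 18.1 ± 4.35 TPM (SD, n = 4) to 7.38 ± 1.24 TPM (n = 4), a log2 fold change of −1.17 ± 0.24 (SE; adjusted p = 0.00824 by limma) and of −0.90 after median-ratio scaling (adjusted p = 0.0297).

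Cdk2 (FBgn0004107, chromosome 3R, 20735623 to 20738414, plus strand) is the kinase that cyclin E activates. It had 11.4, 7.34, 6.38 and 6.35 TPM at 30 days and 33.3, 13.9, 23.6 and 24.8 TPM at 10 days. All 30-day libraries lay below all 10-day libraries, with 10-day library 2 the nearest to them. On the loci assembled from the reads, described further on, the groups overlapped. There 30-day library 4 had 21.7 TPM and 10-day library 2 had 14.75 TPM. The log2 fold change was −1.46 ± 0.32 (adjusted p = 0.0101 by limma), and −1.29 without 10-day library 1 (adjusted p = 0.0225).

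CycE had 5.31, 3.84, 6.35 and 6.04 TPM at 30 days against 15.8, 7.38, 14.8 and 13.7 TPM at 10 days (log2 fold change −1.09 ± 0.34, adjusted p = 0.0394 by limma), a call that was lost without library 1 (adjusted p = 0.0721). E2f1, the activator E2F, and Dp, its DNA-binding partner, were both abundant and both fell by less than 1 log2 unit. E2f1 went from a mean of 305 ± 37.4 TPM (n = 4) to 212 ± 24.01 TPM (n = 4), and Dp from 123 ± 33.9 to 61.5 ± 4.15 TPM. Without library 1 both remained called, with adjusted p of 0.0315 and 0.0161 by limma. Of the other 4 genes of this group, CycD, Rbf, Cdk4 and the Cdk inhibitor dap did not pass (log2 fold changes from −0.62 to −0.53, adjusted p from 0.0605 to 0.241 by limma). For CycD and Rbf the 30-day libraries were still all below the 10-day ones on the annotated rows.

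**Figure D3:**
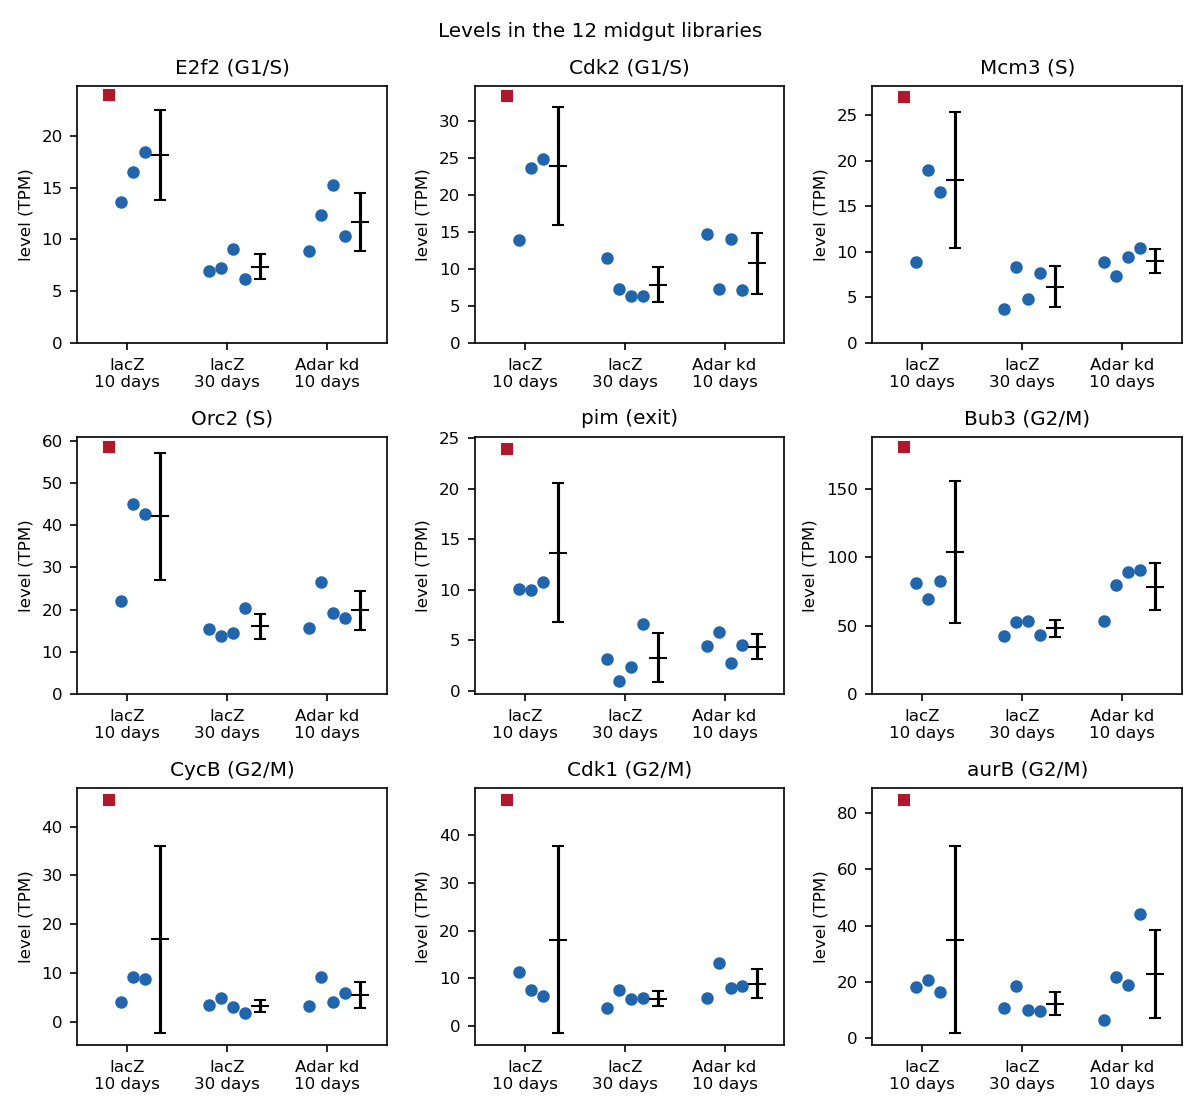
TPM in each library of the 3 midgut groups for 9 genes, with mean and SD (bars) beside the points; the red square is 10-day lacZ library 1. On these annotated rows E2f2, Cdk2, Mcm3, Orc2, pim and Bub3 have no overlap between 30 and 10 days. On assembled loci, not drawn here, Cdk2 and Orc2 do overlap. CycB, Cdk1 and aurB have their high mean at 10 days from library 1.

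Genes that license and start replication made up the S-phase calls. Mcm3 (FBgn0284442, chromosome X, 5323855 to 5326738, plus strand) is a subunit of the replicative helicase. It had 3.75, 8.38, 4.81 and 7.71 TPM at 30 days and 27.0, 8.89, 19.0 and 16.6 TPM at 10 days. The groups did not overlap, though 10-day library 2 was only just above the highest 30-day library. Its log2 fold change was −1.36 ± 0.32 (adjusted p = 0.0149 by limma), and −1.08 after median-ratio scaling (adjusted p = 0.0449). Of the other 5 helicase subunits, Mcm2, Mcm5 and Mcm6 fell, with log2 fold changes of −1.05, −1.36 and −1.38. The remaining subunits, dpa, which is Mcm4, and Mcm7, had −0.68 and −0.57 and did not pass (adjusted p = 0.128 and 0.303 by limma). On the annotated rows the subunits of this 1 complex lay between 3.75 TPM, for Mcm3, and 13.5 TPM, for dpa, at 30 days. At 10 days they lay between 6.70 TPM, for Mcm7, and 48.9 TPM, for Mcm6.

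Orc2 (FBgn0015270, chromosome 3R, 13964885 to 13967075, plus strand) had 15.4, 13.8, 14.5 and 20.4 TPM at 30 days and 58.6, 22.0, 45.0 and 42.7 TPM at 10 days. Again the groups did not overlap, and 10-day library 2 was the lowest of its group. On assembled loci the groups did overlap, with 30-day libraries 3 and 4 at 29.5 and 31.8 TPM and 10-day library 2 at 27.9 TPM. The log2 fold change was −1.28 ± 0.28 (adjusted p = 0.0101 by limma). Orc6, another subunit of the same complex, went from 23.3 ± 9.57 to 10.1 ± 0.583 TPM (n = 4 each; −1.04 ± 0.35, adjusted p = 0.0496 by limma). Orc1 is a subunit that binds ATP, and its protein is known to vary over the cycle. It had 9.53, 7.84, 12.4 and 19.1 TPM at 30 days and 11.6, 4.90, 19.3 and 16.6 TPM at 10 days. The overlap was complete (−0.02 ± 0.44, adjusted p = 0.979 by limma). Geminin fell from 222 ± 137 to 98.5 ± 22.4 TPM (−1.03 ± 0.33, adjusted p = 0.0422 by limma). Its target dup, the Cdt1 loading factor, had −0.90 ± 0.34 (adjusted p = 0.0732 by limma).

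Among the 43 genes, the sliding clamp and the subunits of ribonucleotide reductase did not pass with age. PCNA, the clamp, had 28.8, 33.7, 35.2 and 34.4 TPM at 30 days, inside the 31.1 to 40.3 TPM of 10-day libraries 2 to 4 in 3 of 4 libraries, and 129 TPM in library 1. RnrL had 44.7, 67.3, 56.6 and 70.8 TPM against 37.1, 54.8 and 52.8 TPM in those 3 libraries and 129 TPM in library 1. Its log2 fold change was −0.05 ± 0.36 with library 1 and 0.30 without it (adjusted p = 0.924 and 0.457 by limma).

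Few of the mitotic genes passed, although their median fold change was close to that of the S-phase genes. Bub3 (FBgn0025457, chromosome 3R, 29674007 to 29675421, minus strand), which had the highest mean of these genes over the 12 midgut libraries, belongs to the spindle checkpoint. It had 42.5, 53.0, 53.7 and 42.95 TPM at 30 days and 181, 81.2, 69.9 and 82.5 TPM at 10 days. The groups did not overlap, and library 1 was the highest at 10 days. Its log2 fold change was −0.99 ± 0.28 (adjusted p = 0.0279 by limma), −0.69 without library 1 (adjusted p = 0.0407) and −0.70 after median-ratio scaling, where it was not called (adjusted p = 0.143).

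CycB3 had 2.66, 0.273, 0.243 and 1.83 TPM at 30 days and 14.0, 2.98, 4.55 and 4.002 TPM at 10 days (−1.67 ± 0.48, adjusted p = 0.0295 by limma). Klp61F, the kinesin that separates spindle poles, had 4.22, 6.92, 8.08 and 4.62 TPM at 30 days and 50.5, 7.74, 15.5 and 14.0 TPM at 10 days (−1.43 ± 0.47, adjusted p = 0.0484 by limma). Both calls were lost without library 1 (adjusted p = 0.0599 and 0.0925 by limma). Standard errors in this group ran up to 0.70, for stg.

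The largest fold changes among genes that did not pass were those of borr and CycB. The passenger complex subunit borr had −1.88 ± 0.64 (adjusted p = 0.0527 by limma), and −1.17 without library 1. CycB had −1.58 ± 0.55 (adjusted p = 0.0553 by limma), and −0.94 without it. For Cdk1 the value went from −1.07 to −0.47 and for stg from −1.08 to −0.33 when library 1 was left out. The mitotic kinases polo, aurA and aurB did not pass, and neither did CycA, Incenp, Bub1, BubR1 and mad2. aurA was under 1 TPM in all midgut libraries but 10-day library 1 and knockdown library 2, and did not reach the level needed for a test when library 1 was left out.

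Among the exit genes pim (FBgn0003087, chromosome 2L, 10362989 to 10364092, plus strand), the securin that holds sister chromatids together until anaphase, had the largest fall of all called members. It had 3.20, 0.947, 2.33 and 6.65 TPM at 30 days and 23.9, 10.0, 9.97 and 10.8 TPM at 10 days. The groups did not overlap, and 10-day libraries 2 to 4 were almost equal. Its log2 fold change was −1.85 ± 0.41 (adjusted p = 0.0106 by limma), and −1.57 without library 1 (adjusted p = 0.0233). Its partner separase, encoded with thr, had −0.91 ± 0.31 (adjusted p = 0.0524 by limma) and no overlap between the groups. On the loci assembled from the reads, described further on, the groups did overlap for thr, with 30-day library 4 at 12.3 TPM. The Cdc20 activator fzy had −1.39 ± 0.56 (adjusted p = 0.0873 by limma), and fzr −0.26 ± 0.38 (adjusted p = 0.633 by limma). For fzr, 30-day library 1 stood at 76.2 TPM and the other 3 between 30.4 and 34.6 TPM.

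Counted without a model, all 30-day libraries lay below all 10-day libraries for 20 of the 43 genes, against 22.9% of all tested genes. These were 7 of 9 in G1/S, 6 of 15 in S, 5 of 15 in G2/M and 2 of 4 in exit. Of these genes, CycE, Cdk2, E2f1, Rbf, Mcm6, Orc2, borr and thr overlapped on the loci assembled from the reads, described further on. The reverse order held for 0 of the 43 genes, against 5.76% of all tested genes. Without 10-day library 1 the count was again 20, against 30.8% of all tested genes. Leaving out a library cannot lower this count, so the equal count is no check of the first.

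**Figure D4:**
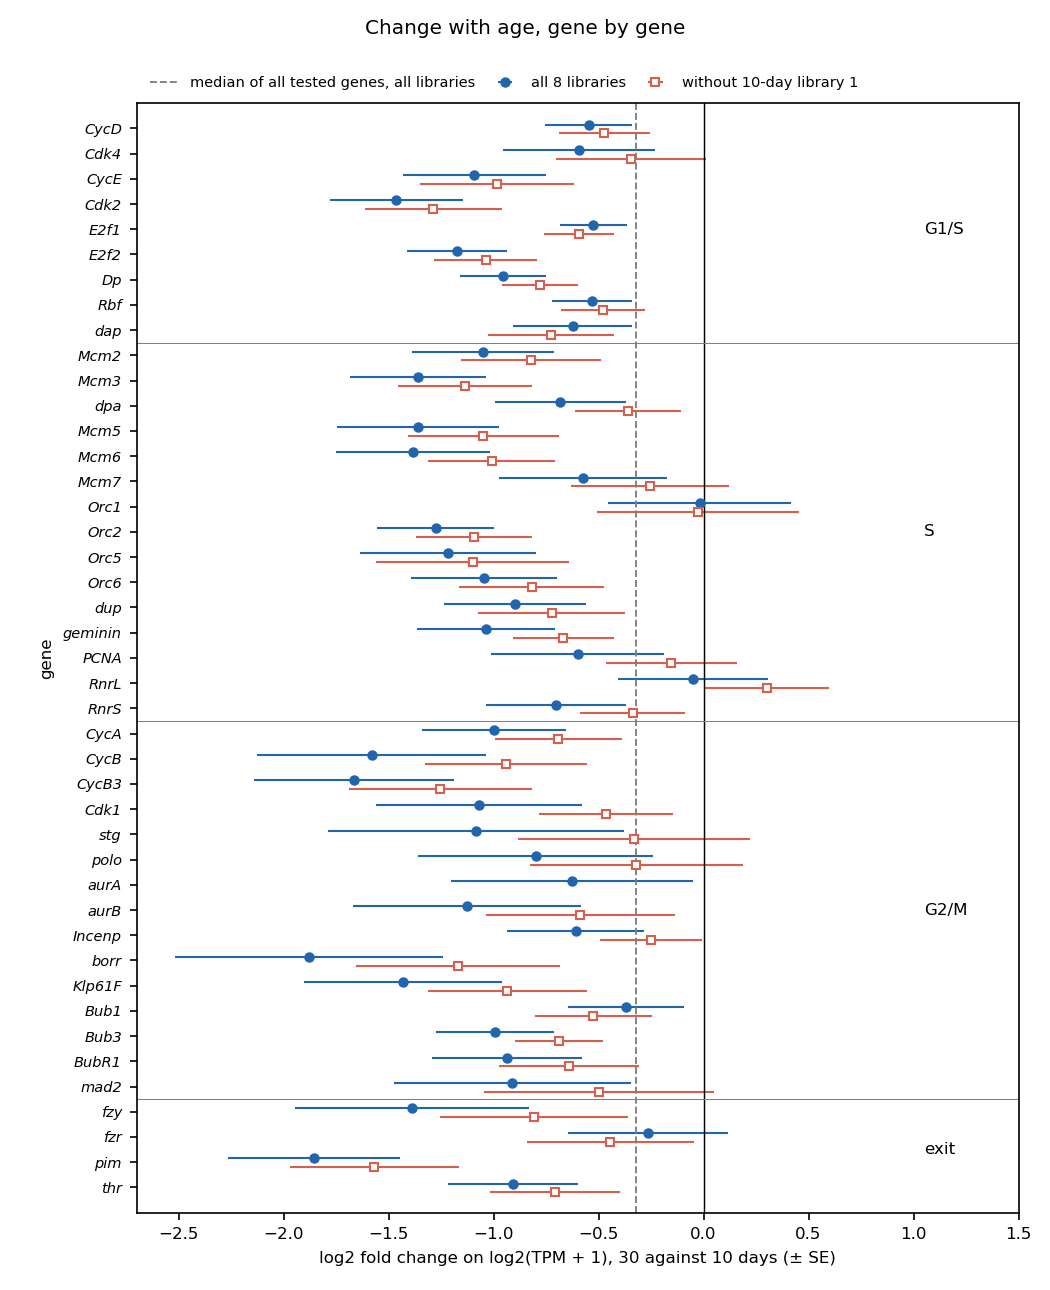
Log2 fold change on log2(TPM + 1) of each gene, 30 against 10 days, with SE, for all 8 libraries (filled) and without 10-day lacZ library 1 (open); the dashed line is the median of all tested genes, −0.32. Leaving out library 1 moves many G2/M genes towards 0, such as Cdk1 from −1.07 to −0.47, and E2f1 of G1/S slightly away from it, from −0.52 to −0.59.

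Further genes of the same processes, in 8 lists of 114 genes of which 112 were matched, were read in the same fits. With age 0 of them rose. Those that fell were 14 of 31 tested genes of origin firing and the replication fork, 8 of 14 of condensin and cohesin, 7 of 14 of the kinetochore and centromere, 6 of 14 of the spindle and cytokinesis, 4 of 12 of the anaphase-promoting complex and its regulators, 3 of 9 of mitotic entry, 3 of 8 of the dREAM complex and E2F partners, and 2 of 7 of nucleotide supply and chromatin assembly. Of all tested genes 15.4% fell. After median-ratio scaling the counts, in that order, were 3, 3, 3, 1, 2, 0, 0 and 0, against 3.74% of all genes. Without 10-day library 1 they were 7, 5, 5, 4, 4, 1, 1 and 2 on TPM, against 13.2%. With both, 1 gene was left in each of 4 lists, Fen1, barr, pav and APC10, against 2.51% of all genes.

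The genes with the smallest adjusted p in these lists lay in several parts of the machinery. Fen1, the flap endonuclease of the lagging strand, fell by 1.98 on the log2 scale (SE 0.42, adjusted p = 0.00921 by limma). barr, a condensin subunit, fell by 1.85 (SE 0.31, adjusted p = 0.00483 by limma). cid, the centromeric histone H3 variant, fell by 1.80 (SE 0.42, adjusted p = 0.0133 by limma), and pav, the kinesin of the cytokinesis midzone, by 1.66 (SE 0.39, adjusted p = 0.0147 by limma). Orc3, Cdc6, APC10, vih, Cap-G, SMC2, Cenp-C and Spc105R also fell on both scales. Of the origin complex, Orc2 and Orc3 were called on both scales, while Orc1 and Orc5 were not called on either. For Orc5, a gene of low level, a missing call does not mean equal levels. It had 1.01, 2.705, 1.21 and 2.41 TPM at 30 days and 7.12, 2.31, 7.335 and 6.34 TPM at 10 days, with overlap.

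Progenitor markers moved with these genes. The sum of the 10 markers of stem cells and enteroblasts was 1207 to 1471 TPM at 30 days and 1857 to 2811 TPM at 10 days, and all 10 were above 0 in every midgut library. Of these markers 3 fell with age, among them mira (−1.65 ± 0.29, adjusted p = 0.00560 by limma), while esg did not pass (−0.77 ± 0.30, adjusted p = 0.0759 by limma). The sum of the 11 enterocyte markers was 676 to 1353 TPM at 30 days and 371 to 597 TPM at 10 days, and 4 of them rose. The enteroendocrine sum was 1120 to 2082 TPM at 30 days, against 336 to 349 TPM in 10-day libraries 2 to 4 and 2623 TPM in library 1, and 3 of its 11 markers rose. Without library 1, 5 progenitor markers fell, and 4 enterocyte and 8 enteroendocrine markers rose. The part of this shift in the levels of the cell cycle genes was not tested.

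The knockdown of Adar was compared with lacZ at the same age of 10 days. Adar was at 16.0, 11.2, 23.5 and 7.78 TPM in the knockdown and at 29.2, 37.5, 45.7 and 38.6 TPM in the controls (−1.40 ± 0.31, adjusted p = 0.0126 by limma). In the knockdown 10 of the 43 genes fell and 0 rose, against 16.0% of all tested genes that fell and 3.74% that rose. They were CycE, Cdk2, E2f1 and Dp of G1/S, Orc2 and Orc6 of S, Klp61F of G2/M, and fzr, pim and thr of exit. The median of the 43 genes was −0.72 and that of all genes −0.39, and 39 of the 43 lay below the median gene.

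None of these calls held on the scale of median ratios, where 0 of the 43 genes fell, against 1.93% of all genes, and 7 had an unadjusted p under 0.05. Without 10-day library 1, 5 genes fell on TPM (CycE, E2f1, Dp, Orc2 and fzr), against 19.5% of all genes, and 0 after median-ratio scaling, against 2.76%. The count was 0 on TPM without 10-day library 3, 10-day library 4 or knockdown library 4, and 17 without 10-day library 2. All knockdown libraries lay below all 10-day lacZ libraries for 6 of the 43 genes, CycD, E2f1, Dp, Rbf, pim and thr, against 18.3% of all genes. Of these, CycD, E2f1, Rbf and thr overlapped on the loci assembled from the reads, described further on. Leaving out 10-day library 1 cannot lower the count of genes without overlap, and it gave the same 6 genes, against 27.0% of all genes.

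CycE had the smallest adjusted p of the 43 genes in this comparison, with 2.37, 4.81, 8.58 and 3.83 TPM in the knockdown (−1.29 ± 0.34, adjusted p = 0.0227 by limma) and 1 knockdown library inside the range of the controls. Dp had 66.6, 78.4, 87.5 and 57.9 TPM against 173, 97.2, 112 and 110 TPM (−0.73 ± 0.20, adjusted p = 0.0276 by limma). E2f1 had 176, 225, 217 and 208 TPM, all below the 263 TPM of the lowest control (−0.56 ± 0.16, adjusted p = 0.0314 by limma). Its assembled loci had 275 to 323 TPM against 267 to 400 TPM, with overlap. The call of Cdk2 was lost without 10-day library 1 (adjusted p = 0.0558 by limma), and CycE turned from −1.29 to 0.38 when loci assembled from the reads replaced its annotated row, as described further on.

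Separase and securin, which act on each other at anaphase, both fell on their annotated rows. For pim the knockdown had 4.46, 5.78, 2.80 and 4.52 TPM (−1.38 ± 0.41, adjusted p = 0.0337 by limma), all below the controls. For thr it had 3.01, 2.21, 3.04 and 1.70 TPM against 9.24, 5.80, 4.76 and 4.23 TPM (−0.97 ± 0.31, adjusted p = 0.0416 by limma). On assembled loci thr had 5.34, 2.97, 4.31 and 10.8 TPM against 19.5, 5.80, 4.76 and 4.23 TPM, with overlap. The calls of pim and thr were both lost without 10-day library 1 (adjusted p = 0.0608 and 0.0779 by limma). For fzr it had 19.9, 14.2, 37.3 and 17.8 TPM against 32.7, 32.4, 81.8 and 61.3 TPM (−1.17 ± 0.38, adjusted p = 0.0462 by limma), with 1 library inside the range of the controls.

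Replication and mitotic genes mostly did not pass in the knockdown. The 6 helicase subunits had log2 fold changes between −0.97 and −0.20 (adjusted p from 0.0723 to 0.656 by limma). Orc2 had 15.6, 26.4, 19.3 and 18.1 TPM against 58.6, 22.0, 45.0 and 42.7 TPM (−0.99 ± 0.28, adjusted p = 0.0278 by limma), with 1 knockdown library above the lowest control and with the opposite direction on assembled loci. Bub3, with 53.5, 80.1, 89.2 and 90.8 TPM, overlapped its controls (−0.32 ± 0.28, adjusted p = 0.401 by limma). Incenp and RnrL were closest to no difference, at −0.12 and −0.10. Adar knockdown library 1 was the lowest of its group for polo, with 3.37 TPM against 17.8 to 24.1 TPM (18.1 TPM on its assembled loci), for mad2, with 1.11 against 9.47 to 14.8 TPM, and for stg, with 0.0380 against 2.24 to 4.53 TPM.

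In the wider lists of the knockdown comparison 0 genes rose. Those that fell were 9 of 31 of origin firing and the fork, 4 of 14 of condensin and cohesin, 4 of 14 of the kinetochore, 4 of 9 of mitotic entry, 3 of 12 of the anaphase-promoting complex, 2 of 14 of the spindle, 2 of 7 of nucleotide supply and 0 of 8 of the dREAM complex, against 16.0% of all genes. Without 10-day library 1 the counts, in that order, were 2, 4, 2, 4, 4, 2, 2 and 0, against 19.5% of all genes. On the scale of median ratios 1 gene in these lists remained called, against 1.93% of all genes. It was pbl, the exchange factor that starts cytokinesis (−1.42 ± 0.31 on TPM, adjusted p = 0.0124, and adjusted p = 0.0431 after scaling, by limma). On that scale 0 remained called without library 1, against 2.76% of all genes. DNApol-alpha60, a primase subunit, had the largest fall on TPM among the top genes of the lists (−2.05 ± 0.55, adjusted p = 0.0245 by limma). The progenitor sum was 1272 to 1417 TPM in the knockdown, and 4 of its 10 markers fell, among them esg (−0.99 ± 0.30, adjusted p = 0.0345 by limma). The enterocyte sum was 586 to 2048 TPM, with 5 of 11 markers higher, and the enteroendocrine sum was 527 to 909 TPM, with 0 of 11 higher. Without library 1, 5 progenitor markers fell, and 5 enterocyte markers and 4 enteroendocrine markers were higher, and 1 enterocyte marker lower. The germline and follicle markers summed to 55.0 and 53.4 TPM in knockdown libraries 2 and 4, and to 3.81 and 5.15 TPM in libraries 1 and 3. The part of these cells was not tested.

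The age and knockdown comparisons share the 10-day lacZ libraries, library 1 included. Side by side, Cdk2 had −1.46 and −1.09, pim −1.85 and −1.38, Dp −0.95 and −0.73, Mcm3 −1.36 and −0.83, Bub3 −0.99 and −0.32, and fzr −0.26 and −1.17, age first. Set directly against each other, the knockdown at 10 days and lacZ at 30 days gave 0 of the 43 genes called, against 0.217% of all tested genes lower and 0.252% higher. Unadjusted p was under 0.05 for 3 of the 43: E2f2 (0.58 higher in the knockdown), Bub3 (0.67 higher) and fzr (0.90 lower), with adjusted p of 0.357, 0.358 and 0.370 by limma. The median of the 43 genes was 0.22 and that of all genes −0.06.

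Each midgut table also held loci that were assembled from the reads without the annotation. For some genes the loci over them held more signal than the annotated row. The full TPM of each locus that overlapped a gene on its strand was added, so it may include signal from outside the gene. The assembled loci over a gene held more than 2 times the TPM of its annotated row in 7 of 172 values in the 10-day lacZ group, in 17 of 172 at 30 days and in 38 of 172 in the Adar knockdown. When these loci replaced the annotated rows, an alternative chosen after the data were seen, 3 of the 43 genes fell with age (E2f2, Dp and pim), against 4.77% of genes, and 1 in the knockdown (Dp), against 3.61%.

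CycE and Orc2 changed most. CycE loci held 17.5, 7.09, 15.1 and 13.8 TPM at 10 days, 28.8, 18.1, 8.08 and 7.38 TPM at 30 days and 11.8, 37.2, 8.54 and 21.0 TPM in the knockdown, and the log2 fold change turned to 0.07 with age and 0.38 in the knockdown (adjusted p = 0.945 and 0.651 by limma). Orc2 loci held 61.3, 81.2, 51.4 and 46.3 TPM in the knockdown, and its fold change there turned from −0.99 to 0.40 (adjusted p = 0.382 by limma). With age Orc2 had −0.80 on the loci (adjusted p = 0.1 by limma). For pim the loci matched the annotated row in each library. Annotated overlaps exist at CycE (2 antisense or noncoding genes) and at Orc2 (rdx, on the other strand), as at Cdk2, E2f1, E2f2, Dp, Mcm3, Orc6, Klp61F, Bub3 and thr among the genes that fell. Whether counting used strand is not given in the sources used here, so their levels may include reads of those neighbours.

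**Figure D5:**
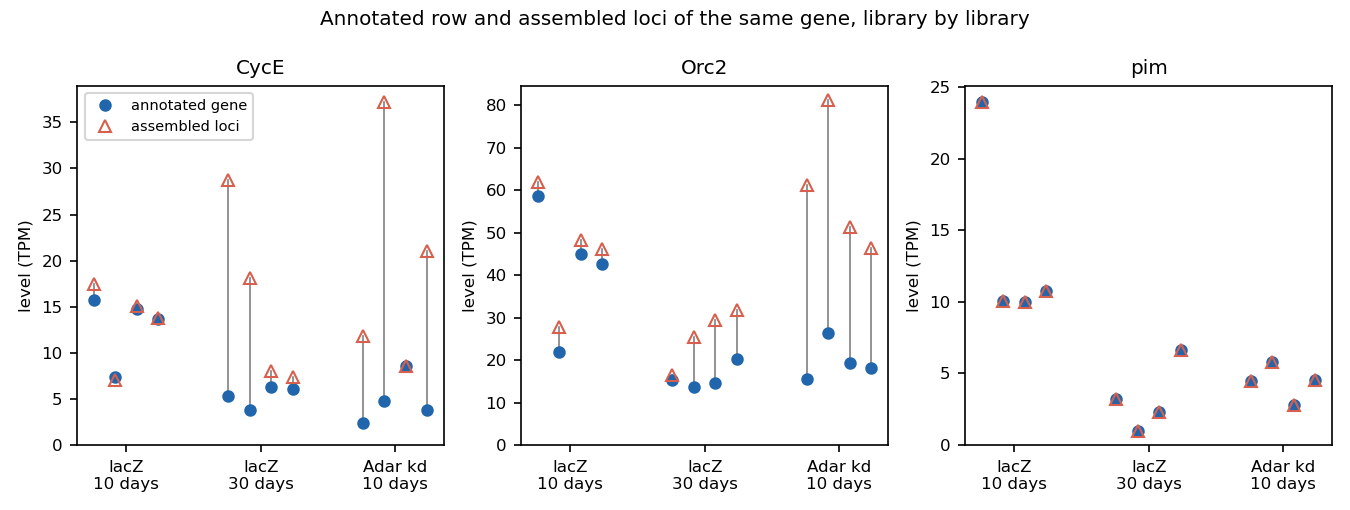
TPM of the annotated row (filled circles) and of the assembled loci over the same gene (open triangles) for CycE, Orc2 and pim in the 12 midgut libraries, joined by a line per library. In the Adar knockdown the loci of Orc2 reach 81.2 TPM where the annotated row has 26.4 TPM, while the symbols of pim coincide.

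In the Zn72d knockdown only 23 of the 43 genes reached the mean of 1 TPM needed for a test, and 0 were called, against 2.12% of 8478 genes in either direction and 0.885% higher. Zn72D itself did not pass (−0.28, adjusted p = 0.471 by limma). An unadjusted p under 0.05 was found for 2 genes. RnrS had 69.9, 66.8 and 49.5 TPM in the knockdown and 33.5, 29.0 and 35.6 TPM in the controls, with no overlap (0.89 ± 0.19, adjusted p = 0.0518 by limma). PCNA had 4.89, 3.79 and 3.30 TPM against 2.27, 1.75 and 2.81 TPM, also with no overlap (0.61 ± 0.21, adjusted p = 0.184 by limma). The large subunit RnrL overlapped, at 1.98, 2.97 and 3.32 TPM against 2.82, 2.33 and 2.98 TPM. RnrS and PCNA were the 2 of 23 genes with no overlap upward, against 8.53% of all tested genes. No overlap downward was found for 4 of the 23, against 19.8% of all tested genes.

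In the set labelled E374A, 38 of the 43 genes were tested and 0 were called, against 0.321% of 8734 genes. All libraries labelled overexpression lay below all those labelled control for 18 of the 38 genes, against 16.0% of genes. Without the library labelled control 3 this held for 19 of the same 38, against 24.1% of the same 8734 genes. Those genes passed the filter with that library included, and leaving out a library cannot lower such a count. The median of the 38 genes was −0.97 and that of all genes −0.36, and 37 of the 38 lay below the median gene. The library labelled control 3 stood far from the other labelled controls, as for CycA, which had 1.74, 2.80 and 49.0 TPM in labelled controls 1 to 3 and 1.75, 1.19 and 1.71 TPM in labelled overexpression. Without that library 29 genes were tested and 0 called, against 3.8% of 8361 genes, and 5 had an unadjusted p under 0.05. The median was then −0.37 over these genes and −0.15 over all, and 22 of the 29 lay below the median gene. PCNA was at 4.36 and 8.93 TPM in the libraries labelled control and at 2.14, 1.74 and 2.79 TPM in those labelled overexpression (−1.19 ± 0.33, adjusted p = 0.1 by limma). RnrS was at 46.8 and 67.2 TPM against 33.2, 28.7 and 35.3 TPM (−0.78 ± 0.22, adjusted p = 0.112 by limma). For both genes the higher levels lay in the libraries with the higher Adar, against the titles. The libraries labelled overexpression share their reads with the Zn72d controls, so the values of RnrS and PCNA in the 2 sets are set against nearly the same libraries.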

How the data were processed

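RNA of 24 libraries in 7 groups was sequenced in paired-end runs, per the labels' protocols. Reads were aligned to dm6 with STAR 2.7.1a and quantified with StringTie, per the submitters' processing notes. The annotation release, like the strand setting, was not given in the sources used here. The authors deposited 1 abundance table per library, with coverage (a signal, mean depth per base), FPKM and TPM per gene. Per the file headers, FPKM is scaled by length and depth and TPM to a fixed total. In 11 libraries the deposited TPM sum to 1000000. In the other 13 the deposited TPM column is a signal in which assembled loci sum to 1000000 and annotated genes add 881199 to 987040. The deposited coverage there includes values slightly below 0, and its unit was recorded as other. Coverage and FPKM served only to compare libraries and to estimate aligned bases, 3.40 to 7.62 gigabases a library. No count table was used here, so depth behind a gene's value is unknown and no counting interval is given.

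Annotated genes were tested with limma 3.58.1 in R 4.3.3 (lmFit, eBayes with trend and robust, statmod 1.5.0) on log2(TPM + 1), a scale that understates changes of low genes. Genes with a mean of at least 1 TPM over the libraries of the fit were tested, two-sided, with Benjamini-Hochberg adjustment over all of them, called at 0.05. The 3 midgut groups shared a fit, and the other pairs were fitted alone. Median-ratio scaling stood beside TPM. The fits were tested on simulated data. Python 3.11.15, pandas 2.3.3, numpy 2.4.6 and matplotlib 3.10.9 read and drew the tables.

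The 43 genes, the lists and the markers were chosen with earlier results of these data known. Values in every library were given for genes called on both scales and for the most abundant gene of a phase without one (Bub3), and up to 3 genes per wider list by adjusted p. All other genes shown by library were chosen after their values were seen. Promoter and protein sequences were not used here.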

Additional observations from a re-analysis of the deposited data

Results flagged for a closer look

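Within the midgut groups 129 sets of 4 libraries (43 genes in 3 groups) were examined for a library that stands apart from the other 3 by Dixon's test, which chance alone flags in about 1 of 20 sets, and 17 stood out. In 14 of them 10-day lacZ library 1 was the highest. From G1/S this was CycD, at 35.3 TPM against 27.9 to 29.0 TPM in libraries 2 to 4. From S it was geminin, at 428 TPM against 144 to 163 TPM, and PCNA, at 129 TPM against 31.1 to 40.3 TPM. From G2/M the cyclins stood out, with CycB at 45.6 TPM against 4.07 to 9.07 TPM and CycB3 at 14.0 TPM against 2.98 to 4.55 TPM. Cdk1 had 47.4 TPM against 6.20 to 11.4 TPM, and its activator stg 38.0 TPM against 1.503 to 6.49 TPM.

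The mitotic kinases gave polo at 58.0 TPM against 11.9 to 16.8 TPM, aurA at 8.05 TPM against 0.157 to 0.785 TPM and aurB at 84.8 TPM against 16.5 to 20.6 TPM. borr, which joins aurB in the passenger complex, had 31.1 TPM against 2.83 to 4.56 TPM, and the checkpoint gene Bub3 had 181 TPM against 69.9 to 82.5 TPM. The exit genes were fzy, at 30.6 TPM against 3.29 to 7.21 TPM, and pim, at 23.9 TPM against 9.97 to 10.8 TPM.

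The other 3 sets came from other libraries. aurA stood out in Adar knockdown library 2, at 2.07 TPM against 0.200 to 0.460 TPM. aurB stood out in 30-day lacZ library 2, at 18.5 TPM against 9.67 to 10.9 TPM. fzr stood out in 30-day lacZ library 1, at 76.2 TPM against 30.4 to 34.6 TPM.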

How the results depend on the processing

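With age the count of 43 genes that fell was 16. It was 5 after median-ratio scaling, 4 after quantile normalization, 7 with no filter on low values, 9 with a replicate block, 8 with 10-day libraries 3 and 4 averaged as 1, and 3 on assembled loci. Rescaling annotated genes to 1000000 gave 11, and leaving out each library in turn gave 7 to 22. It fell to 7 without 30-day library 2, 3 or 4 or 10-day library 3, to 8 without 10-day library 4, to 9 without 10-day library 1 and to 10 without 30-day library 1. Leaving out 10-day library 1 together with median-ratio scaling gave 0.

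In the Adar knockdown the count was 10. It was 0 after median-ratio scaling or quantile normalization, with 10-day libraries 3 and 4 averaged and with median-ratio scaling without 10-day library 1. It was 1 after rescaling, with only the 2 groups fitted and on assembled loci, and 3 with no filter. Leaving out each library gave 0 to 17: 0 without 10-day library 3, 10-day library 4 or knockdown library 4, 4 and 5 without knockdown libraries 2 and 1, 5 without 10-day library 1, and 17 without 10-day library 2. On assembled loci CycE turned to 0.07 with age and to 0.38 in the knockdown, and Orc2 to 0.40 in the knockdown; the cause was not tested.

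In the Zn72d knockdown, where 0 genes rose, 1 did with the replicate block (RnrS, adjusted p = 0.0281 by limma) and, leaving out each library in turn, 0 to 1 (RnrS without knockdown library 3, adjusted p = 0.0211). Counts stayed at 0 under each alternative run for the knockdown against 30 days and for the E374A set. The age calls of pim, Cdk2, E2f2, Orc2 and Mcm3 held in 19, 18, 18, 17 and 17 of 20 alternatives each. No label says that a replicate number marks a shared batch, and same-numbered libraries did not all deviate together, so no replicate block was used in the report. With age the correlations were 0.225, 0.119, −0.080 and 0.217, and 3 of 4 libraries correlated best with their own number, a hint of pairing from the data. The block gave 7 in the Adar knockdown. Depth behind single genes is unknown, and levels near 1 TPM are the least certain.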
